A study of Mus musculus with 48 samples.

Results

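The genes described here are 10 non-coding genes of the mouse that lie opposite or next to genes of forebrain development or of GABA synthesis, namely Dlx1as, Dlx6os1, Six3os1, Otx2os1, Pax6os1, Emx2os, Nkx2-2os, Zfhx2os, Gad1os and Lhx1os. They were taken by name from a table of read pair counts for 48440 genes, 32235 of which had a count in any mouse. Of the 10 members, 9 had a count and Lhx1os had none. The names Dlx6os1 and Nkx2-2os each belong to a second short gene of the annotation's type misc_RNA, which was kept apart and had 3 and 0 counts in all.

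RNA came from the amygdala of both hemispheres of 48 adult male C57BL/6 mice aged 4 months, with 8 mice in each of 6 groups. The groups combined a constitutive null allele of Tph2 (wildtype Tph2+/+, heterozygous Tph2+/- and null Tph2-/-) with rearing, either with maternal separation (MS) for 3 h per day from postnatal day 2 to postnatal day 15 or without stress (control, C). Tph2 encodes the enzyme that makes serotonin in the brain, and the null allele removes it from every cell throughout life. Its neurons lie in the raphe and not in the amygdala. The only counts listed under Tph2 were 2, in 2 mice labelled Tph2-/- MS, and no wildtype mouse had a count. So few counts cannot check the genotype labels. Whether they lie in the deleted part of the gene was not tested. Per the study's methods, all mice had heterozygous parents backcrossed on C57BL/6N, and adult males of both rearings had gone through behavioural tests.

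The Dlx genes encode homeodomain transcription factors that direct the formation of GABA neurons in the ventral forebrain, and they stand in pairs, with Dlx1 beside Dlx2 and Dlx5 beside Dlx6. Each pair has a non-coding gene that runs opposite to 1 of its genes, Dlx1as to Dlx1 and Dlx6os1 to Dlx6. Dlx6os1 is also known as Evf2 and regulates its neighbours in developing GABA neurons. Six3, Otx2, Pax6, Emx2, Nkx2-2 and Lhx1 are regional factors of the developing brain and eye, Zfhx2 encodes a large zinc finger homeobox protein of neurons, and Gad1 encodes a GABA-synthesizing enzyme. In the amygdala, such genes mark neuron types and the borders of a dissection, since GABA neurons of striatal type fill the central nucleus and glutamatergic neurons of cortical type the basolateral complex. In whole tissue, fewer cells of a type and less RNA per cell cannot be told apart.

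By GENCODE release M21 on GRCm38, 7 members are of the type antisense, 2 (Otx2os1 and Lhx1os) of the type lincRNA and Six3os1 is a processed transcript. Exons of 7 members lie opposite to exons of another gene. Dlx1as (chr2:71516454-71537891, minus strand) shares 335 exonic bases with Dlx1 on the other strand, outside the coding sequence of Dlx1. Zfhx2os (chr14:55053869-55075873, plus strand) shares 3255 bases with Zfhx2, of which 2482 are coding in Zfhx2. The first exon of Nkx2-2os (chr2:147184083-147331681, plus strand) lies with all of its 278 bases opposite to coding sequence of Nkx2-2. Emx2os (chr19:59425104-59458635, minus strand) shares 264 bases with Emx2. Six3os1 (chr17:85600651-85618398, minus strand) overlaps Six3 by part of an exon, and Otx2os1 (chr14:48668708-48870683, plus strand) shares 154 bases with Otx2 and further bases with the entries Gm49154 and Gm534. Dlx6os1 (chr6:6820189-6871592, minus strand) spans Dlx6 but shares no exonic base with it, while Gad1os (chr2:70489940-70563357, minus strand) and Pax6os1 (chr2:105536080-105670330, minus strand) overlap Gad1 and Pax6 over 10286 and 1431 bases of their spans without an exonic base in common. Lhx1os (chr11:84525660-84535831, plus strand) lies 124 bases from Lhx1. The last exon of Dlx6os1 also carries, on the other strand, the misc_RNA genes Gm27699 and Gm27905, and Six3os1 carries 6 such genes.

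The stretches below are printed 5′ to 3′ on the strand of the member, from the GENCODE M21 transcripts, and capitals mark the bases opposite to the named entry. The stretches of Dlx6os1 (chr6:6820930-6821133 and chr6:6821117-6821347, minus strand) and Six3os1 (chr17:85611664-85611775 and chr17:85614650-85614747, minus strand) are examples of bases where a short misc_RNA entry on the other strand had more counts than the member itself. The same held for Gm27502 opposite to Six3os1, whose longer stretch is not printed.
Dlx6os1 opposite to Gm27699: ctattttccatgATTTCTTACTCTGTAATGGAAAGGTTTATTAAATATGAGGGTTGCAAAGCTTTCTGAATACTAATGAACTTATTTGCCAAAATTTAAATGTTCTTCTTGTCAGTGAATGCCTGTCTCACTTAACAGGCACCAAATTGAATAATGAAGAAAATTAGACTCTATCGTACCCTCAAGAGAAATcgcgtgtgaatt
Dlx6os1 opposite to Gm27905: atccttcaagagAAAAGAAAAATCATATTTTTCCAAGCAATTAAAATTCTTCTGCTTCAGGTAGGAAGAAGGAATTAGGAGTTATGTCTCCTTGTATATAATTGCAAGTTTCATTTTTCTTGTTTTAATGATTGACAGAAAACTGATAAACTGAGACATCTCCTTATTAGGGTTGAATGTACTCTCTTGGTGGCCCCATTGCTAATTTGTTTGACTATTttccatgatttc
Six3os1 opposite to Gm27435: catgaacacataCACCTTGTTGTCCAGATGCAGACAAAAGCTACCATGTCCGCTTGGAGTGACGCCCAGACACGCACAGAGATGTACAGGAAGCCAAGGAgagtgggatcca
Six3os1 opposite to Gm27610: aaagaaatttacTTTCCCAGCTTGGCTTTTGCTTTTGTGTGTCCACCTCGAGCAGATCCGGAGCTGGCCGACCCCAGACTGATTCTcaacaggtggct
The stretches of Dlx6os1 are poor in G and C, with 33.3% and 32.5%, against 51.8% and 51.0% for those of Six3os1.

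**Figure D1:**
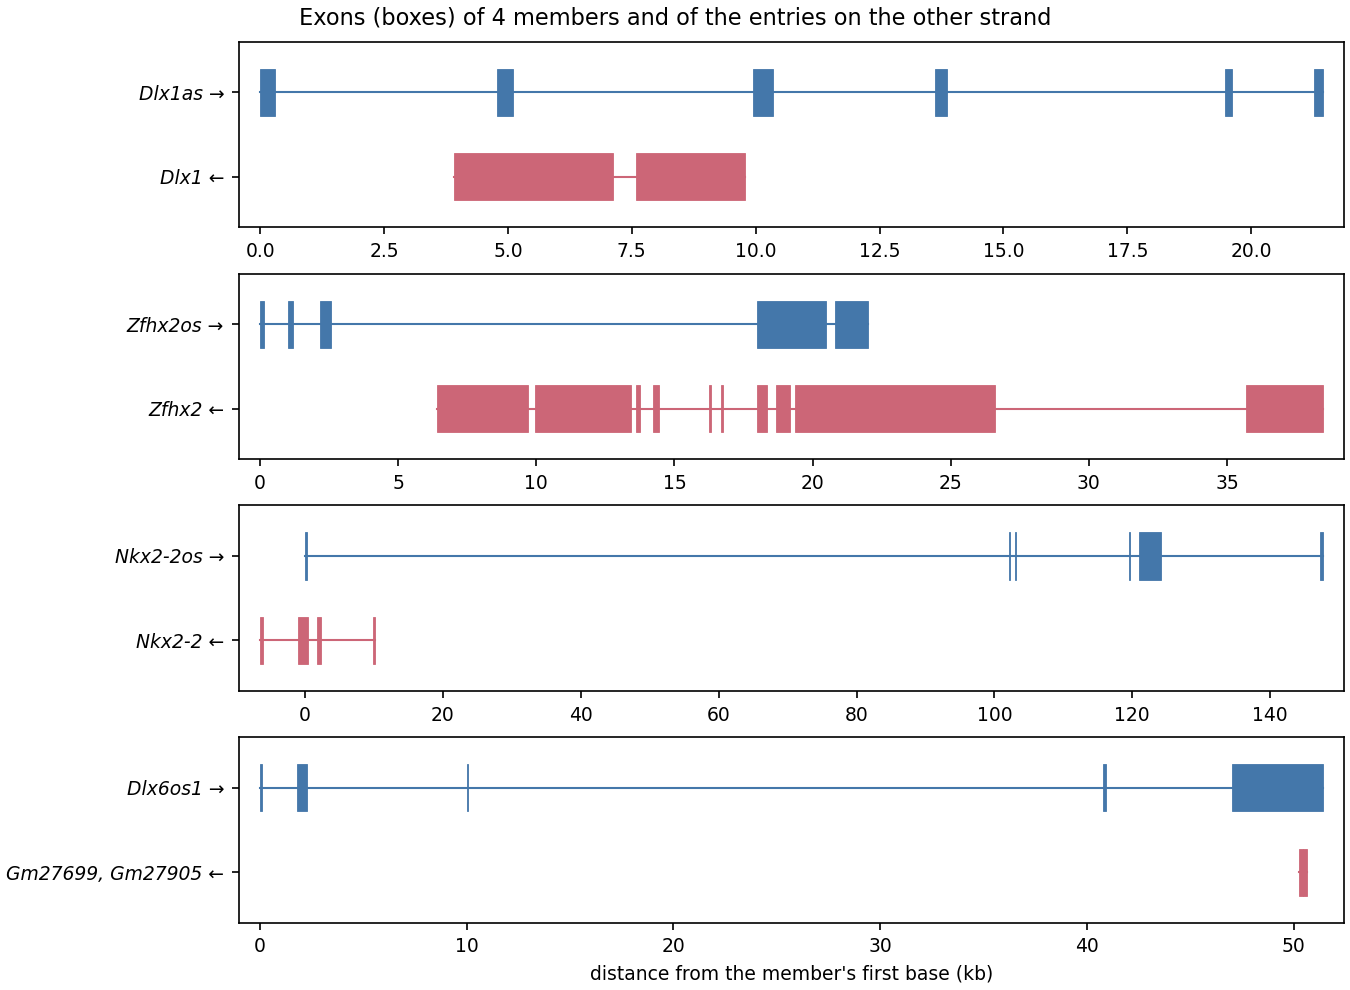
Exons (boxes) of Dlx1as, Zfhx2os, Nkx2-2os and Dlx6os1 in blue and of the entries on the other strand in red, against the distance from the first base of the member in kb. Dlx1as overlaps Dlx1 by 335 bases, Zfhx2os overlaps Zfhx2 by 3255 bases, Nkx2-2os meets Nkx2-2 only with its first 278 bases, and Gm27699 and Gm27905 lie within the last exon of Dlx6os1.

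The strand that the RNA came from was not settled from the counts. The libraries were made with a stranded kit, and the strand setting of the counting is not given in the sources used here. Between 75.8% and 97.6% of the uniquely placed read pairs of a mouse fell on no gene (median 97.5%), and 609489 to 6296568 pairs per mouse were counted on genes (median 738490). Abundant genes of brain were low in the table, with a mean of 7.10 counts for Actb, 8.50 for Snap25 and 8 for Mbp. Several such genes had far more counts under an entry annotated on their other strand. Malat1, an abundant nuclear RNA, had a mean of 135 counts and Gm37376 opposite to it 12377, a ratio of 91.6. Meg3 had a mean of 0.708 counts and Gm26906 opposite to it 131, and Slc32a1, the GABA transporter of synaptic vesicles, had 1.48 against 126.7 for Gm14205. Other genes went the other way, with 58.5 for Gapdh against 8.79 for Iffo1, 839 for mt-Nd5 against 270.6 for mt-Nd6, and 135.5 for Csf1r against 3.77 for Hmgxb3. Malat1, Meg3 and Slc32a1 share 453, 1228 and 697 exonic bases with the entry opposite to them. Csf1r shares 873 with Hmgxb3, but Gapdh shares only 68 with Iffo1 and mt-Nd5 only 14 with mt-Nd6. Counts of pairs with so few shared bases do not compare both strands of the same stretch. Over the 2244 pairs of a protein-coding gene and a non-coding gene with opposite exons, the non-coding entry had the higher mean in 1709 (76.2%) and the coding entry in 507. A mean of at least 10 counts was reached by 38.5% of protein-coding genes with exons opposite to another gene and 6.45% of those without. For lincRNA genes the shares were 37.3% and 2.35%, and for antisense genes 61.3% and 30.5%. The cause was not tested. The values below are therefore given as counts listed under an entry, and none is read as the level of that strand's RNA.

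The counts of the members were very uneven. Over the 48 mice, 5715 pairs were listed under the 10 members, and Dlx1as and Zfhx2os held 5109 of them. Dlx1as had a count in every mouse, from 48 to 109 with a median of 81.5, and its mean count took place 1472 among all genes. Zfhx2os also had a count in every mouse, from 16 to 51 with a median of 24. Nkx2-2os had a count in 47 mice, from 0 to 15 with a median of 6. The other members with a count had a mean under 2 counts per mouse, namely Six3os1 with 93 counts in 37 mice, Gad1os with 82 in 39, Dlx6os1 with 80 in 33, Emx2os with 44 in 32, Pax6os1 with 4 in 4 and Otx2os1 with 2 in 1 mouse. The 0 counts of Lhx1os allow up to 3 counts in a library, which is between 0.476 and 4.92 counts per 1000000 counts on genes (CPM). The lower limit is from a library with 4569582 of its 6296568 counts on Gm42418, and does not carry over to the CPM used below. These limits cover counting error only.

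Against the 283 other genes of the table named for the opposite strand of a gene, Dlx1as was high and most members were low. Of these genes, 261 had a count, the median of their mean counts was 6.17, and 47 had a higher mean than Dlx1as, 90 than Zfhx2os and 141 than Nkx2-2os. The highest were Chn1os3 with a mean of 3934 counts, Chn1os1 with 2996, Grin1os with 1486 and Uchl1os with 1351, all opposite to genes of neurons. Dlx6os2, a gene of the same locus as Dlx6os1 with exons opposite to Dlx6, had 661 counts in all.

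Counts listed under the members were compared per length, as CPM, now scaled to the library size after TMM normalization, and per kb of exon. These values are called levels of the entries here, and they are not levels of that strand's RNA. The level was 66.3 ± 8.83 CPM per kb for Dlx1as (SD, n = 48 mice), 7.37 ± 1.95 for Zfhx2os, 2.47 ± 1.96 for Gad1os and 1.87 ± 0.894 for Nkx2-2os. Dlx1as was above Zfhx2os in 48 of 48 mice, and Zfhx2os above Gad1os in 48 of 48. Gad1os and Nkx2-2os did not separate, since Gad1os was higher in 25 mice and lower in 22. The level was 0.423 ± 0.408 CPM per kb for Dlx6os1, 0.233 ± 0.213 for Emx2os and 0.217 ± 0.196 for Six3os1. These 3 did not separate either, as Dlx6os1 was above Emx2os in 25 mice and below it in 20, and Emx2os above Six3os1 in 27 and below it in 21. Pax6os1, with 0.0845, and Otx2os1, with 0.0183 CPM per kb, rest on 4 counts and 2 counts.

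The members differed in how their counts compared with those on the other strand. Dlx1 had 11984 counts in all against the 3916 of Dlx1as, and Zfhx2 had 13536 against the 1193 of Zfhx2os. Of the counts on both, Dlx1as took between 17.1% and 32.5% in a mouse (median 24.9%) and Zfhx2os between 4.75% and 14.1% (median 7.89%). Nkx2-2os and Nkx2-2 were close, with 301 and 320 counts, and the share of Nkx2-2os ran from 0% to 83.3% with a median of 46.4%. Per kb, Dlx1 had 60.8 ± 8.40 CPM (SD, n = 48), which is within the spread of Dlx1as, and Zfhx2 had 20.4 ± 2.87. The likeness of Dlx1 and Dlx1as depends on the length used, since per kb of the longest transcript Dlx1as had 154.3 CPM and Dlx1 79.8.

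At the loci of Dlx6os1 and Six3os1 most counts were listed under the short misc_RNA genes of the other strand. Gm27699 and Gm27905 had 1116 counts each, from 5 to 46 and from 3 to 39 in a mouse, and Dlx6os1 had 80, although its exons hold the same bases. The share of Dlx6os1 in the sum of the 3 entries was at most 11.4% in any mouse (median 3.25%). Dlx6 had 608 counts and Dlx5 had 27. The 6 misc_RNA genes opposite to Six3os1 had 589 counts together, namely 202 for Gm27435, 149 for Gm27502, 99 for Gm27610, 74 for Gm27275, 37 for Gm27283 and 28 for Gm27801, while Six3os1 had 93 and Six3 had 47. As these entries are short against a read pair, their counts per kb were not compared with those of the members.

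Of the partner genes whose exons do not meet those of the member, Pax6 had 853 counts against 4 for Pax6os1 and Gad1 230 against 82 for Gad1os. Dlx2 had 26 counts and Lhx1 had 5. Of those whose exons do meet, Otx2 had 1 count, and Emx2 had 104 counts against 44 for Emx2os.

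**Figure D2:**
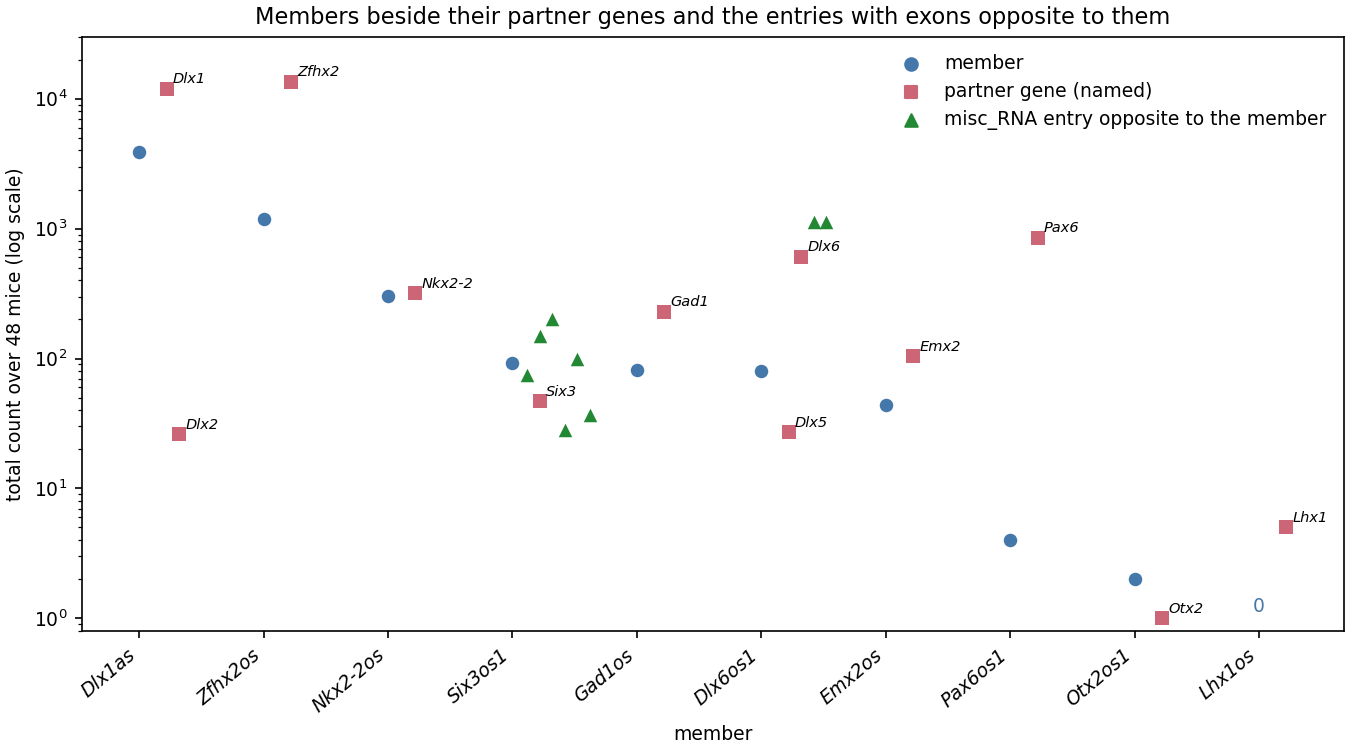
Total count over 48 mice (log axis) of each member (circles), of its partner genes (named squares) and of the misc_RNA entries with exons opposite to it (triangles). Dlx1 and Zfhx2 had more counts than the member beside them, the triangles at Dlx6os1 stand at 1116 against 80 for the member, and Lhx1os is at 0.

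**Figure D3:**
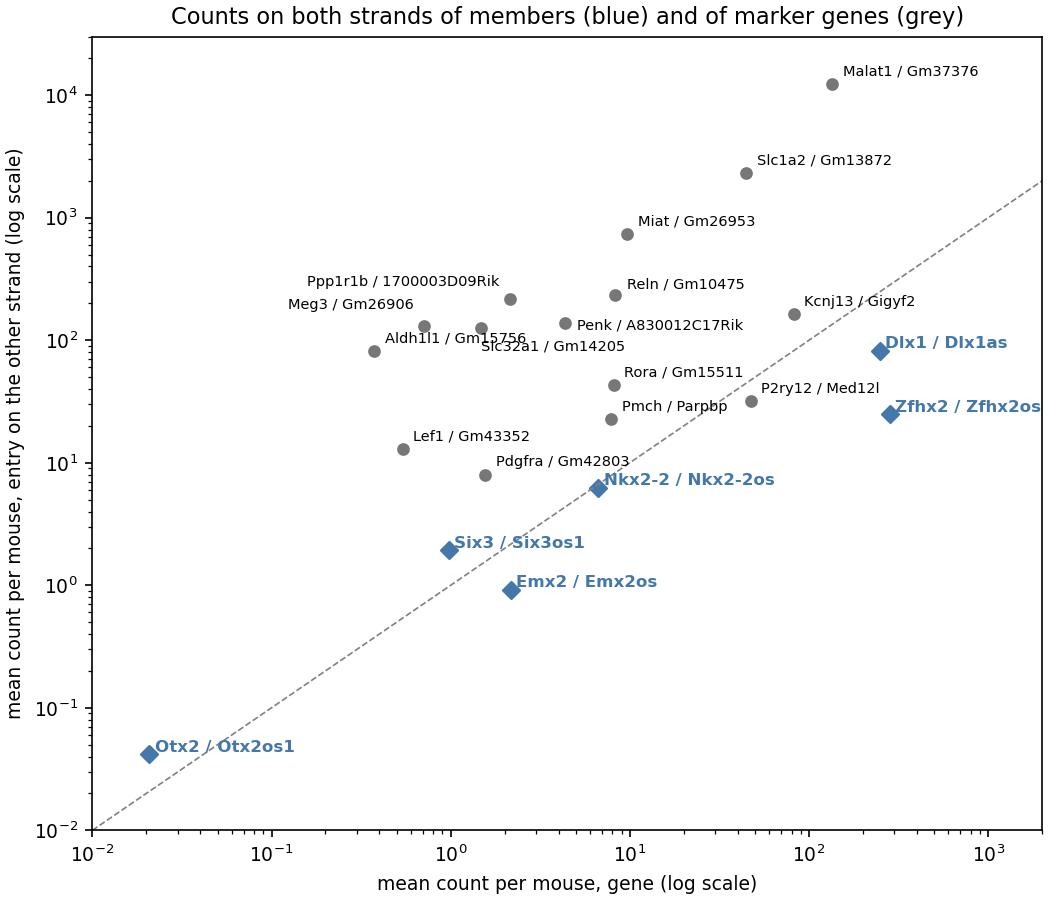
Mean count per mouse of a gene (horizontal, log axis) and of the entry on its other strand (vertical, log axis), with equal counts on the dashed line. The pairs of a partner gene and a member (blue diamonds) lie on both sides of the line, with Dlx1as at 81.6 against 249.7 for Dlx1, while the marker and reference genes plotted in grey lie above it with 1 exception, P2ry12 with 47.5 against 31.8 for Med12l.

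No difference in Dlx1as between the 6 groups was detected. In Tph2+/+ C mice it ran from 96.0 to 126.5 CPM with a median of 112.2, and in Tph2+/+ MS mice from 84.9 to 138.0 with a median of 114.0. In Tph2+/- C mice it ran from 89.8 to 150.9 CPM with a median of 105.8, and in Tph2+/- MS mice from 82.8 to 125.6 with a median of 109.3. In Tph2-/- C mice it ran from 84.8 to 122.3 CPM with a median of 97.2, and in Tph2-/- MS mice from 93.7 to 132.0 with a median of 105.5. Every group overlapped every other. The lowest group mean, 99.7 ± 13.6 CPM (SD, n = 8), was that of Tph2-/- C, and the highest, 113.2 ± 15.9, that of Tph2+/+ MS. The spread between mice of a group was 14.4 CPM, and counting error alone gives 12.1.

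Differences were tested with edgeR's quasi-likelihood F test in 1 model of the 48 mice over the 6781 genes that passed edgeR's filter on low counts, and p-values were adjusted over all of these genes by Benjamini-Hochberg. Dlx1as and Zfhx2os were the 2 members that passed the filter, and the 7 others with a count are given by their values. The 10 tests were a comparison of all 6 groups, the interactions GE1 (the MS effect in Tph2+/- minus that in Tph2+/+) and GE2 (the same for Tph2-/-), MS against C within each genotype, and Tph2+/- and Tph2-/- against Tph2+/+ within C and within MS. Several of these comparisons share control samples. A gene was called at an adjusted p below 0.05, and counted a second time by the thresholds of the study, a nominal p below 0.01 and an absolute log2 fold change (lg2FC) above 0.2.

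None of the 2 members tested was called in any of the 10 tests by either threshold with edgeR or with DESeq2. At an unadjusted p below 0.05, 1 member (Zfhx2os) passed in 1 test, with both tools. In that test, Tph2+/- against Tph2+/+ in C, 6.80% of all genes had such a p in edgeR and 6.47% in DESeq2. Over all genes tested, the share called by edgeR at an adjusted p below 0.05 was 0.0147% over the 6 groups (1 gene, CT010467.1, with 87745 of its counts in 1 library), 0.0147% for Tph2-/- against Tph2+/+ in MS (1 gene, Acp1, with a lg2FC of 0.89 and a standard error of 0.17) and 0% in the other 8 tests. These genes are named after their values were seen. DESeq2 called 2 of the 6781 genes over the 6 groups and 3 for GE1. It called 1 each for MS in Tph2+/+, MS in Tph2-/- and Tph2-/- against Tph2+/+ in MS, and 0 in the remaining tests. By the thresholds of the study the share in edgeR was 1.92% over the 6 groups (by p alone), 2.82% for GE1, 0.472% for GE2, 2.43%, 0.575% and 0.767% for MS in Tph2+/+, Tph2+/- and Tph2-/-, 1.96% and 0.56% for Tph2+/- and Tph2-/- against Tph2+/+ in C, and 1.12% and 1.9% for the same in MS. At these shares, 0 of 2 members is close to the background.

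For Dlx1as, the comparison of the 6 groups gave an adjusted p = 0.988 in edgeR. Its lg2FC lay between -0.16 for Tph2-/- against Tph2+/+ in C and 0.10 for MS in Tph2-/- among the 7 comparisons of 2 groups, with standard errors of 0.10. The 95% confidence intervals of these 7 comparisons stayed between -0.37 and 0.31 on the log2 scale, or 0.774-fold and 1.24-fold. GE1 was -0.05 with a standard error of 0.14, and GE2 was 0.09 with a standard error of 0.14.

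Zfhx2os had fewer counts than Dlx1as, and its spread between mice of a group was 8.29 CPM where counting error alone gives 6.65. In Tph2+/+ C mice it ran from 22.5 to 44.8 CPM with a median of 26.1, and in Tph2+/- C mice from 25.2 to 56.6 with a median of 38.1. In Tph2+/+ MS mice it ran from 19.7 to 43.4 CPM with a median of 27.4, and in Tph2+/- MS mice from 24.1 to 54.8 with a median of 30.7. In Tph2-/- C mice it ran from 20.4 to 34.6 CPM with a median of 31.0, and in Tph2-/- MS mice from 21.7 to 41.9 with a median of 36.96. Tph2+/- C held the highest mouse, but all groups overlapped. The lowest group mean, 29.3 ± 5.42 CPM (SD, n = 8), was that of Tph2-/- C, and the highest, 39.4 ± 10.1, that of Tph2+/- C.

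The test with an unadjusted p below 0.05 was that of Zfhx2os for Tph2+/- against Tph2+/+ in C, with a lg2FC of 0.41 (standard error 0.18, edgeR adjusted p = 0.647). Without the 7 controls that carry the highest animal numbers, 4 of which belong to these 2 groups, the lg2FC was 0.32 with a standard error of 0.21 and an adjusted p = 0.993, and the unadjusted p was no longer below 0.05. Over the 6 groups Zfhx2os gave an adjusted p = 0.898 in edgeR. The 7 comparisons of 2 groups had a lg2FC between -0.19 and 0.41 and intervals that stayed between -0.54 and 0.77, or 0.689-fold and 1.70-fold. GE1 was -0.21 (standard error 0.25) and GE2 was 0.24 (standard error 0.26).

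**Figure D4:**
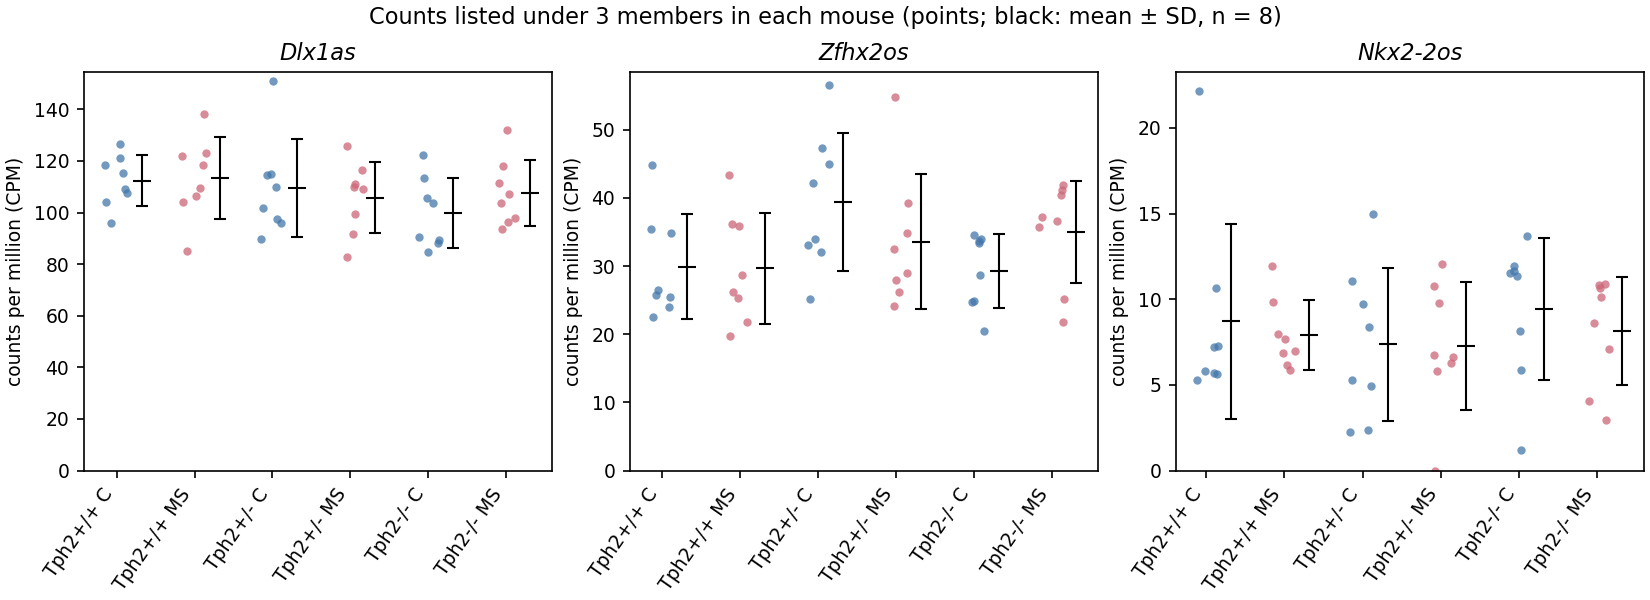
CPM listed under Dlx1as, Zfhx2os and Nkx2-2os in each mouse (points), by group, with the mean and SD of 8 mice in black. The groups overlap for each member, the highest Dlx1as value is a Tph2+/- C mouse at 150.9, and the highest Nkx2-2os value a Tph2+/+ C mouse at 22.1.

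The 5 partner genes in the fit (Dlx1, Dlx6, Nkx2-2, Pax6 and Zfhx2) were not called in the same tests. Nkx2-2, a factor of oligodendrocyte precursors, had the largest differences. It ran from 2.72 to 10.7 CPM in Tph2-/- C with a median of 5.76, against 2.82 to 21.1 with a median of 10.7 in Tph2+/+ C and 2.53 to 18.6 with a median of 10.2 in Tph2-/- MS. The lg2FC was -0.88 (standard error 0.34, edgeR adjusted p = 0.999) for Tph2-/- against Tph2+/+ in C. It was 0.83 (standard error 0.33, edgeR adjusted p = 0.895) for MS in Tph2-/- and 0.92 (standard error 0.45, adjusted p = 1) for GE2. These 3 comparisons share the Tph2-/- C mice, their 95% intervals leave out 0 and their unadjusted p was below 0.05, as it was for 3.69%, 4.85% and 3.52% of all genes in these tests. Of the 4 oligodendrocyte genes tested, 1, Nkx2-2 itself, had such a p. In Tph2-/- C, Nkx2-2os had its highest group mean. Its share in the counts of both was 59.0% ± 17.7 (SD, n = 8) there against 44.7% ± 16.6 in Tph2+/+ C. The shares overlapped, from 25% to 83.3% and from 20% to 66.7%, and were not tested. Dlx1 had its largest lg2FC for Tph2-/- against Tph2+/+ in MS, where it ran from 252.5 to 410.7 CPM against 261.7 to 375.2 with a lg2FC of 0.25 (standard error 0.09, edgeR adjusted p = 0.539). Dlx1as had a lg2FC of -0.07 (standard error 0.10) in that comparison. Zfhx2 had a lg2FC between -0.10 and 0.05 in the 7 comparisons of 2 groups, with standard errors near 0.095. The share of Dlx1as in the counts of Dlx1as and Dlx1 had group means between 23.3% ± 4.67 (SD, n = 8) in Tph2-/- MS and 27.2% ± 3.47 in Tph2+/+ MS. That of Zfhx2os was lowest in Tph2+/+ C with 7.33% ± 2.13 and highest in Tph2-/- MS with 9.39% ± 2.16.

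**Figure D5:**
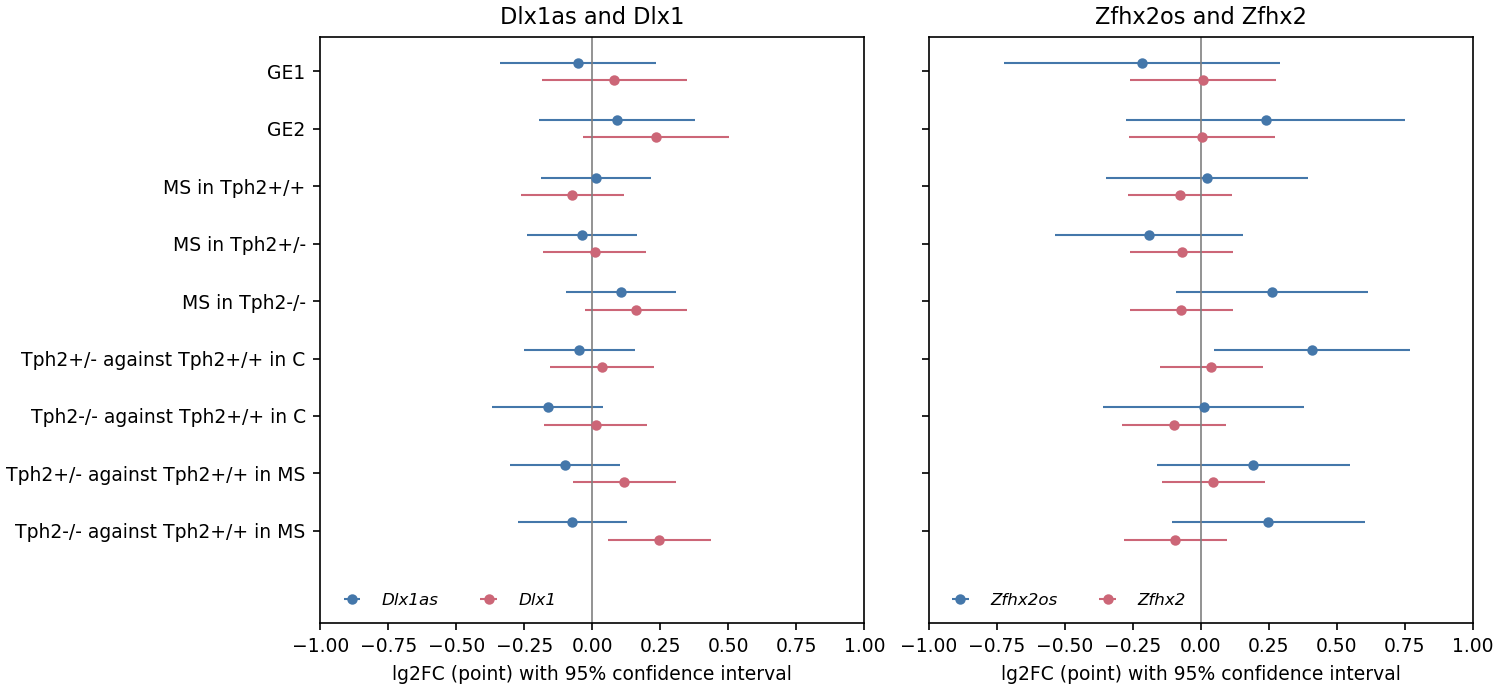
The lg2FC with its 95% confidence interval for Dlx1as and Dlx1 (left) and Zfhx2os and Zfhx2 (right) in 9 comparisons, with 48 mice in the model. The interval of Zfhx2os for Tph2+/- against Tph2+/+ in C (0.05 to 0.77) and that of Dlx1 for Tph2-/- against Tph2+/+ in MS (0.06 to 0.44) leave out 0, both without passing after adjustment.

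Of the entries opposite to Dlx6os1, Gm27905 was lowest in Tph2+/- C, from 16.3 to 30.5 CPM with a median of 24.0, and highest in Tph2-/- C, from 26.7 to 44.9 with a median of 38.3. Over the 6 groups edgeR gave an adjusted p = 0.75 for Gm27905, and for Gm27699, which lies beside it, an adjusted p = 0.99.

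The remaining members had few counts in every group. Nkx2-2os had between 46 counts in each of the Tph2+/- groups and 59 in Tph2-/- C, and its group means lay between 7.26 ± 3.74 CPM in Tph2+/- MS (SD, n = 8) and 9.41 ± 4.13 in Tph2-/- C. Six3os1 had the widest range, from 8 counts in 4 of the 8 Tph2-/- MS mice to 26 counts in 8 of the 8 Tph2+/+ MS mice. The entries opposite to it had their fewest counts in Tph2+/- C, with 88, and their most in Tph2+/+ MS, where Six3os1 also had its most. The share of Six3os1 in the counts of all these entries was 5.74% ± 6.55 (SD, n = 8) in Tph2-/- MS and 15.9% ± 8.95 in Tph2+/+ MS. Gad1os had between 9 and 18 counts in a group, Dlx6os1 between 7 and 16 and Emx2os between 6 and 9. The counts of Pax6os1 were in Tph2+/+ mice, 3 in C and 1 in MS, and those of Otx2os1 in 1 Tph2-/- C mouse. None of these members entered the tests above.

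Dlx1as and Zfhx2os, the pair of members compared across mice, did not vary together. On log2 CPM with the group mean taken off each value, Pearson's r over the 48 mice was -0.07 between Dlx1as and Zfhx2os, -0.14 between Dlx1as and Dlx1 and 0.05 between Zfhx2os and Zfhx2. It was 0.10 between Nkx2-2os and Nkx2-2 and 0.45 between the neighbours Gm27699 and Gm27905. These points share their library and its size factor, much of the spread is counting error, and the values are a description. The largest r with Dlx1as among the partner genes compared was that of Pax6 (r = 0.38, Spearman's rho = 0.38). Among 6780 genes, those most like Dlx1as were Tpgs2 (r = 0.56), Macrod2os1 (r = 0.53) and Ndufv3 (r = 0.53), and those most like Zfhx2os were Gm26821 (r = 0.56), Agbl5 (r = 0.53) and Mtrex (r = 0.52).

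As markers of neuron type and of the dissection, the members were set beside marker genes of the amygdala and its surroundings. Counts under the markers themselves were low. Of 15 genes of GABA neurons, 1 had a mean of at least 10 counts (Calb1, 11.04), followed by Reln with 8.25, Gad1 with 4.79 and Prox1 with 3.08. Of 15 genes of the central and intercalated nuclei and striatum, 1 reached it, and of 10 genes of glutamatergic neurons also 1 (Lmo3, 13.02). Of 9 hypothalamus genes none reached it and Oxt, Avp and Nr5a1 had no count, and of 8 genes of thalamus and habenula none did. Of 8 choroid plexus genes 1 did (Kcnj13, 82.5), while Ttr, the defining one, had a mean of 3.06. Of 9 oligodendrocyte, 7 astrocyte, 6 microglia and 5 endothelial genes, 2, 2, 2 and 0 reached it. In these lists 18 genes passed the filter, and edgeR and DESeq2 called 0 of them in the 10 tests by either threshold. At an unadjusted p below 0.05, edgeR had 10 of their 180 results over the 10 tests (5.56%) and DESeq2 had 9 (5%), against 5.68% and 5.26% over all genes. By list, edgeR had 4 of 20 results for the central and intercalated nuclei and striatum, 3 of 40 for oligodendrocytes, 1 of 10 each for glutamatergic neurons, hypothalamus and thalamus with habenula, and 0 for GABA neurons, choroid plexus, astrocytes and microglia, and no list had more than 1 gene with such a p.

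Entries opposite to a marker carried more counts, and 12 of them passed the filter. Dlx1as had an r of -0.08 with Gm14205 (opposite to Slc32a1), 0.26 with A830012C17Rik (opposite to Penk, the enkephalin gene of striatal type neurons), -0.28 with 1700003D09Rik (opposite to Ppp1r1b, a gene of striatal neurons) and -0.33 with Gm13872 (opposite to Slc1a2, the glutamate transporter of astrocytes). With Gm15756, opposite to the astrocyte gene Aldh1l1, it had an r of 0.08. With Zfhx2os, none of the 12 had an r beyond -0.20 or 0.19. Gm27699 and Gm27905 had an r of -0.49 and -0.40 with Gm10475, which lies opposite to Reln. Parpbp, opposite to the lateral hypothalamus gene Pmch, had group means from 5.36 to 110.1 CPM (edgeR adjusted p = 0.0868 over the 6 groups), and its r was -0.16 with Dlx1as and 0.17 with Zfhx2os. Gigyf2, opposite to Kcnj13 of the choroid plexus, had group means from 79.3 to 273.7 CPM and an r of -0.16 with Dlx1as and 0.01 with Zfhx2os. The part of the dissection in the values of the members was not tested.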

How the data were processed

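Total RNA libraries from the amygdala of 48 mice were made by the authors with a stranded kit and read as pairs of 125 bp. The authors deposited raw counts of read pairs per Ensembl gene, mapped to GRCm38.p5. The submitters' processing notes name STAR, HTSeq and DESeq2, without versions, and the strand setting of the counting is not given in the sources used here. All columns were matched to a mouse by their labels. The counter's 5 summary entries, which name no gene, were kept out of library sizes and tests (a median of 97.5% of uniquely placed pairs fell on no gene).

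Following the study, the gene Lars2 was removed. Genes passing filterByExpr (minimum count 10) were normalized with TMM, and the quasi-likelihood F test with robust dispersions was run on a model of 6 group means (edgeR 4.0.16, R 4.3.3). CPM in the text use the TMM library size, which ranged from 379484 to 952654. The 12 alternatives were DESeq2 (1.42.0, without a prior), DESeq2 size factors, all genes with a count, a mean of at least 1 count, no robust estimation, Lars2 kept, uniquely placed pairs as library size, a replicate block, only the groups compared, a covariate, and leaving out 4 libraries or 7 controls. The fits were tested on simulated data. Correlations used log2 CPM with a prior count of 2. Opposite exons and sequences came from GENCODE M21, which holds 48058 of the genes in the table. Nothing in the labels says that mice came from separate litters, so p-values measure the spread between these mice.

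The text names all members, their partner genes, every gene with exons opposite to a member, up to 4 genes of the highest mean in each list, and the 3 genes most like each member with a mean of at least 10 counts. Slc32a1, Aldh1l1, Oxt, Avp, Nr5a1 and other genes facing a named entry are named outside this rule, after their values were seen. Some named items and sequences are not reported here. Members and lists were chosen with earlier results of these data known. Python 3.11.15 with NumPy 2.4.6, SciPy 1.17.1, pandas 2.3.3 and matplotlib 3.10.9 was used.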

Additional observations from a re-analysis of the deposited data

Results flagged for a closer look

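In 4 of the 45 member and group combinations with any spread, 1 of the 8 mice lay far from the nearest other. Chance gives about 1 in 20 such groups for continuous values, which does not apply to Otx2os1 and Pax6os1, where a single mouse with a count among mice at 0 always meets this. Dlx1as had 150.9 CPM in Tph2+/- C replicate 2, where the next mouse had 114.8. This library held 4492836 counts on Gm42418, and its 67 counts on Dlx1as were within the range of the group. No comparison of Dlx1as was called with it, or in the fit without the 4 libraries richest in Gm42418, which include it. Nkx2-2os had 22.1 CPM in Tph2+/+ C replicate 6 from 15 counts, where the next mouse had 10.7. Otx2os1 had 2.32 CPM in Tph2-/- C replicate 7 from its 2 counts, and Pax6os1 had 1.38 CPM in Tph2+/+ MS replicate 3 from 1 count, while the other mice of these groups had none.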

How the results depend on the processing

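Across the 12 alternatives the count of members called at an adjusted p below 0.05 was 0 in every test they were run for, also with the replicate block, where it was 0 as well (the fit of only the groups compared gave no value over the 6 groups). By the thresholds of the study it was 0 with 1 exception: with every gene that had a count in the fit, 1 of 9 members, Six3os1, passed for Tph2-/- against Tph2+/+ in MS (lg2FC -1.59, standard error 0.58, edgeR adjusted p = 0.698), as did 1.35% of the 32234 genes. The replicate numbers did not pair the mice, as the median correlation of same-numbered mice was 0.005 (range -0.298 to 0.274), 21 of 120 pairs were above 0.1 and 9 of 48 mice correlated best with their own number. For Zfhx2os in Tph2+/- against Tph2+/+ in C the lg2FC ran from 0.32 to 0.47 and the adjusted p from 0.460 to 0.993. With all uniquely placed pairs as library size, the median lg2FC of all genes shifted by up to 0.12 (MS in Tph2+/+).

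Uncalled values near 0 changed sign in 14 cases. For Dlx1as they were GE1 (0.0104 with every gene counted, 0.0157 without the 4 libraries rich in Gm42418), GE2 (-0.0101 with all uniquely placed pairs), MS in Tph2+/+ (-0.000103 with every gene counted), MS in Tph2+/- (0.0103 with every gene counted, 0.0406 with all uniquely placed pairs, 0.0291 without the 4 libraries) and Tph2+/- against Tph2+/+ in C (0.000778 with all uniquely placed pairs). For Zfhx2os they were MS in Tph2+/+ (-0.0650 without the 7 controls, -0.0326 with the share of multiply placed alignments as covariate) and Tph2-/- against Tph2+/+ in C (-0.0081 with every gene counted, -0.0019 with a mean of at least 1 count, -0.0524 without the 7 controls, -0.0217 with the covariate). With the longest transcript as length the level rose to 154.3 CPM per kb for Dlx1as and 0.460 for Six3os1, by construction. With all uniquely placed pairs as library size, r became 0.15 between Dlx1as and Dlx1 and 0.53 between Dlx1as and Gm27905, which were -0.14 and 0.18. The cause was not tested. Over all genes, calls at an adjusted p below 0.05 ran from 0 to 64 against 0 to 1, and calls by the thresholds of the study from 24 to 538 against 32 to 191.

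The 7 members with a count that failed the filter had few counts, and 6 of them had a mean under 2. Whether depth or the way of counting limits them was not tested.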
